A study of Mus musculus with 9 samples.

Results

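The genes described here are 10 ETS transcription factors measured in mouse duodenal organoids, namely Ets1, Ets2, Elf1, Elf3, Elf4, Ehf, Etv4, Etv5, Erf and Elk3. They were chosen by name as ETS genes associated with epithelium, with earlier results of these data known. All 10 were found among the 46517 genes of each table. A further 17 ETS genes served for comparison, so that 27 ETS genes were examined in all. The organoids were 3-dimensional cultures grown from duodenal crypts of wild-type C57BL/6J mice in medium conditioned by L-WRN cells, which supplies Wnt3a, R-spondin 3 and noggin. They were transduced with adenovirus after being broken into single cells, and bulk RNA was sequenced from 9 samples, 3 per group. Ad-GFP carries green fluorescent protein and was the control. Ad-hHIF2 and Ad-hHIF1 carry human hypoxia-inducible factor alleles in which the prolines that mark the protein for destruction are replaced by alanine, so that the protein persists in oxygen. The overexpression is transient and comes from a viral vector, and all 9 samples, controls included, were exposed to adenovirus. Per the study's methods, the organoids were grown at an oxygen level below that of air. The medium held inhibitors of ROCK and of the TGF-β receptor kinase, and nicotinamide after transduction. The comparison addresses which ETS genes differ when a stable HIF2 or HIF1 is supplied. The samples are numbered 1, 3 and 4 in each group. The study calls them biological replicates, but the labels do not say that they came from separate animals, so the p-values below measure the spread between these samples, which may be partly technical.

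ETS proteins bind DNA through a conserved winged helix-turn-helix domain, the ETS domain, whose recognition helix reads a short core, GGAA, in the major groove. Most members are activators, some are repressors, and many are switched by the ERK branch of MAP kinase signalling, which phosphorylates them or changes their stability. In epithelia, Elf3 and Ehf belong to the epithelium-specific subfamily and are known for genes of differentiation and barrier function, Ets1 and Ets2 for matrix proteases, migration and inflammation, and Etv4 and Etv5 for responses to fibroblast growth factor and ERK.

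The coding stretch of the recognition helix is shown for the members whose levels differed between groups, with Ets2 beside its near relative Ets1, because it is the feature that the family shares. Each stretch holds 45 bases of the longest complete coding sequence in GENCODE M21 (build GRCm38), 5′ to 3′ on the coding strand, and the capitals mark the codons of the paired arginines that contact the GGAA core.
Ets1: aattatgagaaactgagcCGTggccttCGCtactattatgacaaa
Ets2: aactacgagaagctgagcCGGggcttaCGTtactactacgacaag
Elf3: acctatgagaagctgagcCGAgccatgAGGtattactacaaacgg
Ehf: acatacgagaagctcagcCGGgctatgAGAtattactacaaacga
Elf1: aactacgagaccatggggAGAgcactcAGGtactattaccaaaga
Elf4: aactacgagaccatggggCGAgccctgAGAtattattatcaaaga
Etv5: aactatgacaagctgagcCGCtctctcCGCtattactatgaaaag
The Ets1 stretch lies at chr9:32754255-32754299 on the plus strand, in exon 8 of 8, and that of Ets2 at chr16:95718965-95719009 on the plus strand, in exon 10 of 10. The Etv5 stretch lies at chr16:22386772-22386816 on the minus strand, in exon 12 of 13. The stretches of Elf3, Ehf and Elf4 each span an exon junction, between chr1:135254365-135254953, chr2:103266856-103266995 and chrX:48417009-48417899, all on the minus strand, and that of Elf1 spans one between chr14:79570887-79573187 on the plus strand. Elf3 and Ehf share 38 of the 45 bases (84.4%), Ets1 and Ets2 share 35 (77.8%), and Ets1 and Elf3 share 28 (62.2%). Over these bases alone, Ets1 and Etv4, like Ets2 and Erf, share 36 (80.0%), so that the stretch does not set Ets1 and Ets2 apart as a pair. The closest pair among all 10 members was Elf1 and Elf4, with 39 identical bases (86.7%).

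In Ad-hHIF2 samples, Ets1, Elf3 and, in counts, Ehf stood at about 2.5 times the Ad-GFP level, Elf1 and Elf4 rose by smaller amounts, and Etv5 was lower, although its log2 fold change was above 0 on the deposited TPM scales, where the median of all genes rose further. In Ad-hHIF1 samples no member passed the test, and 0 of all 15233 genes tested did so (0.0%). Levels are given as CPM, counts scaled to a common library total by the TMM method, and a member passed where edgeR's quasi-likelihood test gave a Benjamini-Hochberg adjusted p below 0.05 over all genes tested. In Ad-hHIF2 against Ad-GFP, 5 of the 10 members passed as higher and 1 as lower, beside 15.9% higher and 13.6% lower among all 14987 genes tested (29.5% in either direction). Of the 10 members, 3 also rose by at least 2-fold, beside 2.9% of all genes. The Ad-hHIF2 and Ad-GFP samples did not overlap in 8 members, beside 45.8% of all genes. The median log2 fold change of the members was 0.254, and that of all genes tested was -0.0116. The members were chosen with earlier results of these data known, so these counts are descriptive and test no excess over all genes. Bulk RNA cannot tell a change in RNA per cell from a change in the number of cells of a type.

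**Figure D1:**
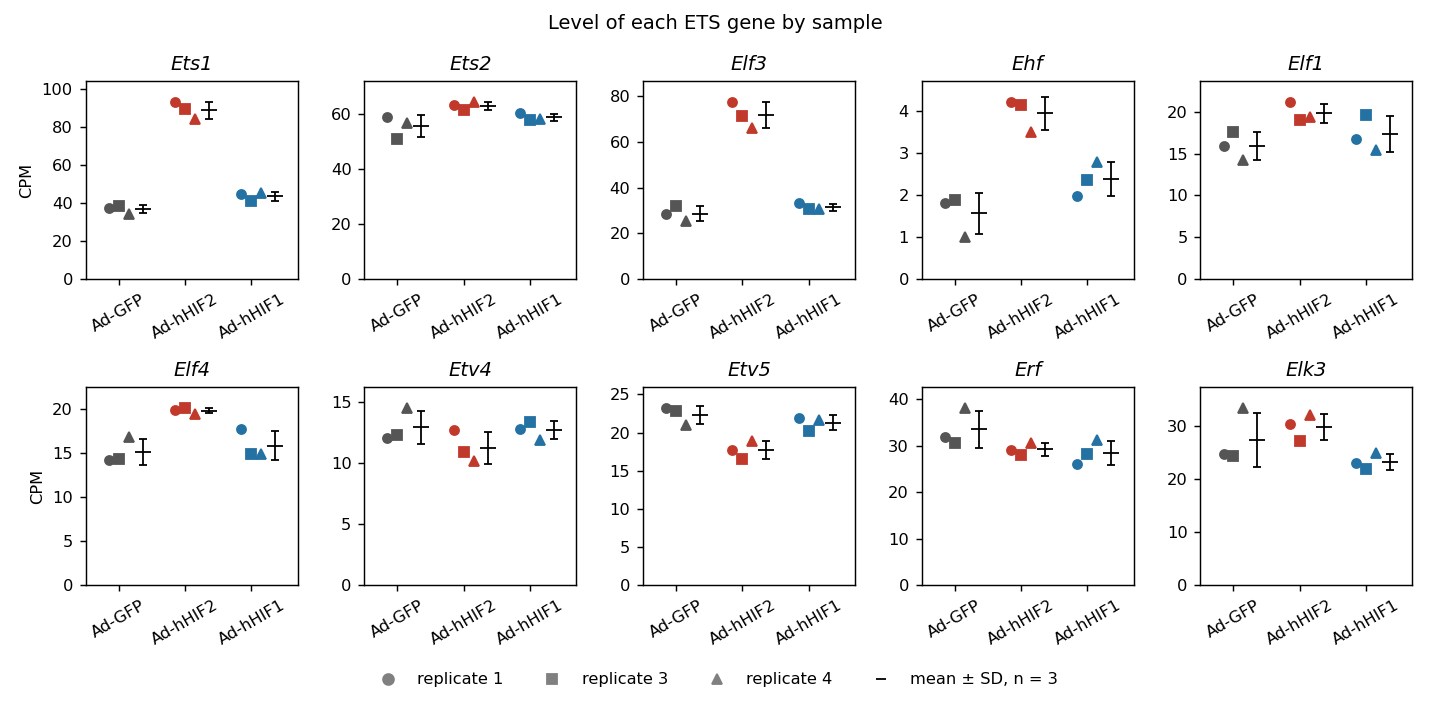
CPM (vertical axis, from 0) of each of the 10 ETS genes in every sample, by group; symbols mark the replicate number and black bars the mean ± SD of 3 samples. The Ad-hHIF2 samples of Ets1 lie between 84.3 and 93.2 CPM and those of Elf3 between 66.1 and 77.3 CPM, above every Ad-GFP and Ad-hHIF1 sample.

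Ets1, the founding member of the family, is known as an activator of matrix protease and angiogenesis genes. It lies at chr9:32636221-32757820 on the plus strand of GRCm38 (ENSMUSG00000032035). Ad-GFP samples held 37.3, 38.6 and 34.5 CPM in replicates 1, 3 and 4, Ad-hHIF2 samples held 93.2, 89.5 and 84.3 CPM, and Ad-hHIF1 samples held 44.8, 40.9 and 45.4 CPM. Every Ad-hHIF2 sample was above every other sample, and the Ad-hHIF1 samples were above the Ad-GFP samples by a narrow gap. The log2 fold change in Ad-hHIF2 against Ad-GFP was 1.28 ± 0.07 (SE, n = 3 against 3), a fold of 2.42, with an adjusted p of 9.37e-06 in edgeR. In Ad-hHIF1 against Ad-GFP it was 0.25 ± 0.08 (SE), and with an edgeR adjusted p of 0.501 it did not pass. The counts behind these levels ran from 691 to 4563 per sample. The gene overlaps Gm27240, annotated on the opposite strand, and whether reads were assigned by strand is not given in the sources used here.

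Ets2 encodes the closest relative of Ets1 and served as the natural reference for it. Ad-GFP samples held 59.1, 51.2 and 56.8 CPM, Ad-hHIF2 samples 63.4, 61.5 and 64.5 CPM, and Ad-hHIF1 samples 60.5, 58.1 and 58.4 CPM. The Ad-hHIF2 samples lay above the Ad-GFP samples without overlap, but the difference was small. Its log2 fold change was 0.19 (95% interval 0.01 to 0.36), and the edgeR adjusted p of 0.104 did not pass. Within each sample, the ratio of Ets1 to Ets2 counts does not depend on library scaling. It was 0.631, 0.755 and 0.608 in Ad-GFP, 1.47, 1.46 and 1.31 in Ad-hHIF2, and 0.74, 0.705 and 0.778 in Ad-hHIF1. The ratio was higher in every Ad-hHIF2 sample than in any other. Per kb of effective length, Ets1 was at 19.23, 18.83 and 17.41 CPM and Ets2 at 19.67, 17.37 and 17.73 CPM in Ad-hHIF2, so that neither gene was consistently above the other.

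Elf3, an epithelium-specific ETS activator linked to enterocyte and goblet cell differentiation, rose in Ad-hHIF2 by an amount that lay within error of those of Ets1 and Ehf. It lies at chr1:135253575-135258568 on the minus strand (ENSMUSG00000003051). Ad-GFP samples held 28.3, 32.1 and 25.4 CPM, Ad-hHIF2 samples 77.3, 71.4 and 66.1 CPM, and Ad-hHIF1 samples 33.0, 30.6 and 30.4 CPM. All Ad-hHIF2 samples stood above all others, and the Ad-GFP and Ad-hHIF1 samples overlapped. The log2 fold change in Ad-hHIF2 was 1.32 ± 0.10 (SE), a fold of 2.50, with an edgeR adjusted p of 3.41e-05. Elf3 counts were not whole numbers in any of the 9 samples, which means that RSEM shared some of its reads with other features, and the gene overlaps the antisense gene Gm26642. Elf3 and Ets1 stayed in a like proportion, with a mean ratio of Elf3 to Ets1 counts of 0.776 ± 0.0494 in Ad-GFP, 0.803 ± 0.023 in Ad-hHIF2 and 0.718 ± 0.042 in Ad-hHIF1 (SD, n = 3). Every Ad-hHIF2 sample was above every Ad-hHIF1 sample in this ratio, while the Ad-GFP samples overlapped both.

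Ehf, the other epithelium-specific member here, was the least abundant of the 10. It held 1.80, 1.88 and 0.9998 CPM in Ad-GFP, 4.21, 4.14 and 3.49 CPM in Ad-hHIF2 and 1.98, 2.36 and 2.79 CPM in Ad-hHIF1. In CPM the groups did not overlap in any comparison, and the Ad-hHIF1 samples lay between the other groups. The log2 fold change in Ad-hHIF2 was 1.31 (95% interval 0.72 to 1.90), a fold of 2.48, with an edgeR adjusted p of 0.00617. On log2(FPKM + 0.1) it was 0.98 and did not pass (limma adjusted p 0.0803), and on log2(TPM + 1) and log2(TPM + 0.1) it was 0.16 and 0.70 and passed, which is 0.03 and 0.40 above the median of all genes there. In Ad-hHIF1 it was 0.59 in counts with an edgeR adjusted p of 0.639. On log2(TPM + 1) and log2(TPM + 0.1) the Ad-hHIF1 value was 0.0135 and 0.0877, below the medians of all genes there, 0.0448 and 0.131. On log2(FPKM + 0.1) it was 0.1524, above the median of 0.0736. These levels rest on 20 to 68 counts per Ad-GFP sample and 108 to 211 per Ad-hHIF2 sample. The interval for Ehf is the widest among the members. The effective length that RSEM gave Ehf varied from 1244 to 4334 bases between samples, so its level per length is less certain than its count. Per kb of that length, Ehf was 0.634 ± 0.198 CPM in Ad-GFP and 1.13 ± 0.300 CPM in Ad-hHIF2 (SD, n = 3). On this scale the Ad-hHIF1 samples, at 0.595 to 0.743, overlapped the Ad-GFP samples, at 0.417 to 0.804.

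Elf1 and Elf4 are close relatives best known from lymphocytes but expressed in many tissues. Elf4 held 14.2, 14.3 and 16.8 CPM in Ad-GFP, 19.9, 20.1 and 19.5 CPM in Ad-hHIF2 and 17.7, 14.9 and 14.9 CPM in Ad-hHIF1. Elf1 held 15.9, 17.5 and 14.2 CPM in Ad-GFP, 21.2, 19.0 and 19.4 CPM in Ad-hHIF2 and 16.8, 19.7 and 15.5 CPM in Ad-hHIF1. Neither gene overlapped between Ad-hHIF2 and Ad-GFP, and both changes were modest. In Ad-hHIF2 the log2 fold change was 0.40 ± 0.09 (SE) for Elf4, with an edgeR adjusted p of 0.0115, and 0.32 ± 0.09 (SE) for Elf1, with an edgeR adjusted p of 0.0323. Neither passed with limma on the TPM or FPKM scales, where the adjusted p was 0.0709 to 0.24 for Elf4 and 0.097 to 0.307 for Elf1. The log2 fold change on these scales was 0.27 to 0.70 for Elf4 and 0.33 to 0.68 for Elf1. Relative to the median of all genes there, it was 0.15 to 0.43 for Elf4 and 0.20 to 0.38 for Elf1. Elf4 did not pass without Ad-GFP replicate 3 (edgeR adjusted p 0.0532). Elf1 did not pass in a fit of all 9 samples (edgeR adjusted p 0.0579), nor without Ad-GFP replicate 1, Ad-hHIF2 replicate 1, Ad-hHIF2 replicate 3 or Ad-hHIF2 replicate 4, where its edgeR adjusted p was 0.0769, 0.108, 0.0635 and 0.0694. Elf1 counts were whole in 1 of 9 samples, and the gene overlaps Wbp4 on the opposite strand.

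Etv4 and Etv5 belong to the PEA3 subfamily, activators that are induced by ERK signalling and stabilised by it. Etv5 held 23.2, 22.8 and 21.0 CPM in Ad-GFP, 17.8, 16.6 and 19.0 CPM in Ad-hHIF2 and 21.96, 20.2 and 21.7 CPM in Ad-hHIF1. Every Ad-hHIF2 sample was below every other sample. The log2 fold change in Ad-hHIF2 against Ad-GFP was -0.33 ± 0.08 (SE), with an edgeR adjusted p of 0.0175, but on the deposited TPM scale it was 0.06 or 0.10, depending on the pseudocount, and did not pass. The median of all genes was 0.124 or 0.302 on those scales, and relative to it Etv5 was at -0.06 or -0.20. It did not pass either without Ad-GFP replicate 1, Ad-GFP replicate 3, Ad-hHIF2 replicate 1 or Ad-hHIF2 replicate 3, where its edgeR adjusted p was 0.0623, 0.061, 0.0755 and 0.0804. Etv4 held 12, 12.3 and 14.5 CPM in Ad-GFP, 12.7, 10.9 and 10.1 CPM in Ad-hHIF2 and 12.7, 13.4 and 11.9 CPM in Ad-hHIF1. Its groups overlapped in all 3 comparisons, and the log2 fold change of -0.19 (95% interval -0.46 to 0.08) in Ad-hHIF2 against Ad-GFP did not pass (edgeR adjusted p 0.265).

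Erf and Elk3 encode ETS repressors, and ERK phosphorylation is known to relieve the repression by each. Erf held 31.8, 30.7 and 37.99 CPM in Ad-GFP, 29.1, 27.9 and 30.6 CPM in Ad-hHIF2 and 26.0, 28.1 and 31.1 CPM in Ad-hHIF1. Elk3 held 24.7, 24.2 and 33.2 CPM in Ad-GFP, 30.3, 27.2 and 31.95 CPM in Ad-hHIF2 and 23.0, 21.8 and 24.8 CPM in Ad-hHIF1. In both genes, Ad-GFP replicate 4 was the highest Ad-GFP sample. Neither passed against Ad-GFP: the log2 fold change in Ad-hHIF2 was -0.19 (95% interval -0.41 to 0.03) for Erf, with an edgeR adjusted p of 0.166, and 0.13 (95% interval -0.16 to 0.43) for Elk3, with an edgeR adjusted p of 0.48. Without Ad-GFP replicate 4, Elk3 passed at a log2 fold change of 0.30 and an edgeR adjusted p of 0.032. The ratio of Erf to Ets1 counts within a sample was 0.852, 0.793 and 1.10 in Ad-GFP, 0.312, 0.312 and 0.363 in Ad-hHIF2 and 0.58, 0.687 and 0.685 in Ad-hHIF1. The 3 groups did not overlap in this ratio, and they did not overlap in the CPM of Ets1 alone either. Neither Erf nor Ets1 passed in Ad-hHIF1 against Ad-GFP (edgeR adjusted p 0.597 and 0.501).

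**Figure D2:**
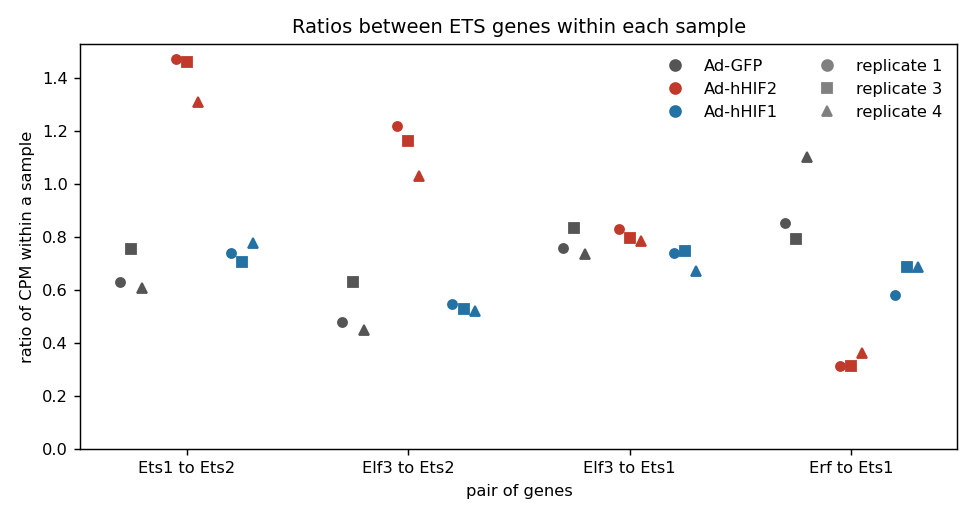
Ratio of CPM (vertical axis, from 0) between pairs of ETS genes within each sample; colours mark the group and symbols the replicate number. Ets1 to Ets2 lies at 1.31 to 1.47 in Ad-hHIF2 and below 1 in the other samples, while Elf3 to Ets1 lies between 0.67 and 0.832 in all 9 samples.

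Ad-hHIF1 was compared with the same Ad-GFP samples, so the HIF comparisons share their controls. With edgeR, 0 of the 10 members passed, and 0 of all 15233 genes tested did so (0.0%). At an unadjusted p below 0.05, 1 member (Ets1) and 8.59% of all genes were found. In CPM, Ad-hHIF1 did not overlap with Ad-GFP in 2 members (Ets1 and Ehf) and in 17.4% of all genes. No member passed with DESeq2 or limma-voom, which called 144 and 5 of all genes. The 95% intervals of the log2 fold change in Ad-hHIF1 were 0.07 to 0.43 for Ets1 and -0.09 to 0.35 for Elf3, and both lie under the lower ends of the Ad-hHIF2 intervals, 1.11 and 1.10. The interval for Ehf reached from -0.18 to 1.36 and overlaps its Ad-hHIF2 interval.

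**Figure D3:**
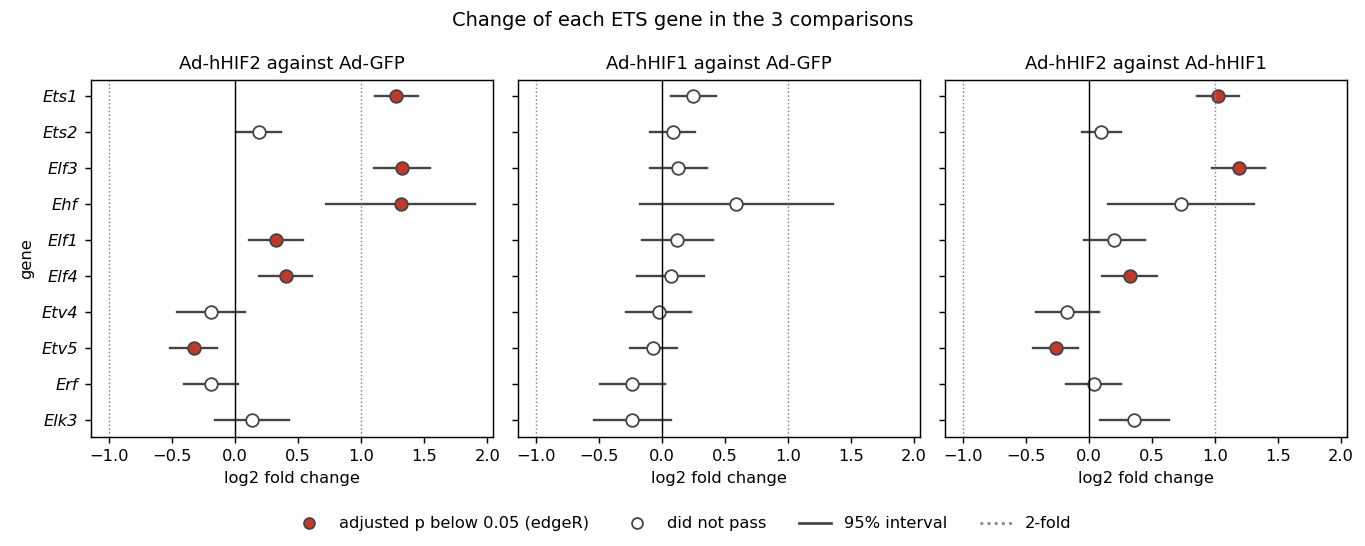
Log2 fold change (horizontal axis) of each ETS gene in the 3 comparisons, with its 95% interval; filled points passed an edgeR adjusted p below 0.05 and dotted lines mark 2-fold. Ets1 and Elf3 lie at 1.28 and 1.32 in Ad-hHIF2 against Ad-GFP and at 0.25 and 0.13 in Ad-hHIF1 against Ad-GFP, and Etv5, at -0.33 in the first panel, was above 0 on the TPM scales but below the median of all genes there.

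The HIFs were also compared directly, in a fit of all 9 samples. Against Ad-hHIF1, 3 members passed as higher in Ad-hHIF2 and 1 as lower, beside 13.7% higher and 12% lower among the 15556 genes tested (25.8% in either direction), and 2 members rose by at least 2-fold, beside 2.42%. The samples did not overlap in 7 members, beside 41.8% of all genes. Ets1 was higher by a log2 fold change of 1.03 ± 0.07 (SE) and Elf3 by 1.19 ± 0.09 (SE), with edgeR adjusted p values of 6.76e-06 and 1.24e-05. Elf4 was higher by 0.32 and Etv5 lower by 0.26 on the log2 scale (edgeR adjusted p 0.034 and 0.0344), with Etv5 at 0.01 or 0.0002 on the TPM scales, which is -0.05 or -0.17 relative to the median of all genes there. Both calls were lost with the replicate number as a block (edgeR adjusted p 0.056 for Elf4 and 0.0523 for Etv5), and Elk3 then passed (0.0186). The block took the calls over all genes from 4008 to 3638. Ehf, at 0.73 (95% interval 0.15 to 1.31, edgeR adjusted p 0.0653), Elk3, at 0.36 (0.09 to 0.63, adjusted p 0.0547), and Elf1, at 0.20 (-0.04 to 0.44, adjusted p 0.214), did not pass. Calls in this comparison rested on few libraries: 2 members passed without Ad-hHIF2 replicate 1, without Ad-hHIF2 replicate 3 or without Ad-hHIF1 replicate 4, and 6 passed without Ad-GFP replicate 4. Calls over all genes moved as well, from 4008 to 2594, 2831, 3624 and 4335 in these fits. Ets1 was at 2-fold by a margin too small to hold throughout, and 1 member was left at 2-fold without Ad-hHIF2 replicate 1 or without Ad-hHIF1 replicate 3.

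Levels can be set side by side between genes only per length, as CPM per kb of effective length. In Ad-GFP the order was Ets2 (15.7) and Elf3 (15.7), whose samples overlapped, then Erf (10.04), Etv4 (9.46), Ets1 (7.63) and Elk3 (7.24), each overlapping its neighbour, then Etv5 (6.01), Elf1 (4.14), Elf4 (2.62) and Ehf (0.634), which were separate. In Ad-hHIF2 it was Elf3 (39.3), alone at the top, then Ets1 (18.5) and Ets2 (18.3), which overlapped. Erf (8.71), Elk3 (7.61) and Etv4 (7.56) followed, with Etv4 samples overlapping those of both Erf and Elk3. Below them were Elf1 (5.21) and Etv5 (4.75), which overlapped, Elf4 (3.45) and Ehf (1.13). In Ad-hHIF1, Ets2 (17.1) and Elf3 (17.1) were again level at the top, followed by Ets1 (9.11), Etv4 (8.85) and Erf (8.68), which overlapped. Ets1 thus ranked 5 in Ad-GFP, 3 in Ad-hHIF1 and 2 in Ad-hHIF2. Etv4 is placed with less certainty, since its effective length varied from 1126 to 1832 bases between samples.

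Summed over all 27 ETS genes, the level per length was 127.6 ± 4.91 CPM per kb in Ad-GFP, 174.4 ± 10.1 in Ad-hHIF2 and 129.2 ± 5.20 in Ad-hHIF1 (SD, n = 3). Elf3 supplied 12.3% of that sum in Ad-GFP, 22.5% in Ad-hHIF2 and 13.3% in Ad-hHIF1, and Ets1 supplied 6.0%, 10.6% and 7.07%. The shares of Etv4, Etv5 and Erf were 7.37%, 4.72% and 7.86% in Ad-GFP and 4.3%, 2.73% and 5.0% in Ad-hHIF2. The share of Elk3 went from 5.65% to 4.37%, and that of Ets2 was smaller too. Since the sum itself was larger in Ad-hHIF2, a smaller share does not mean a lower level, and Ets2, Etv4, Erf and Elk3 did not pass the test on their counts.

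**Figure D4:**
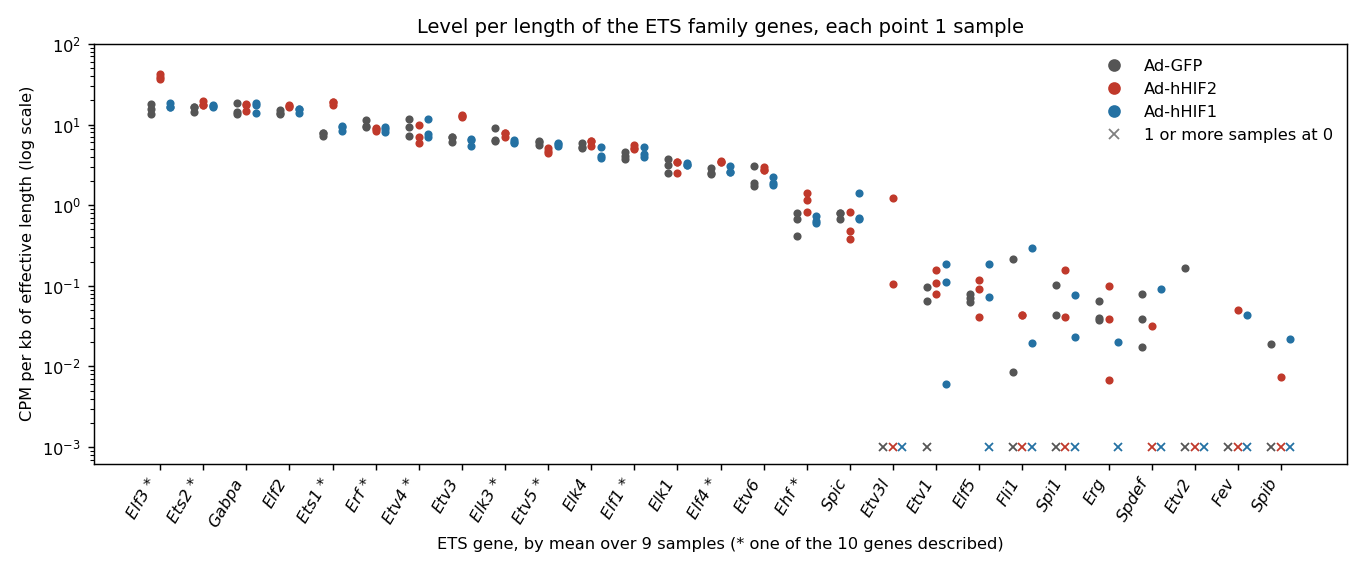
Level per length (CPM per kb of effective length, logarithmic vertical axis) of 27 ETS genes, ordered by their mean over 9 samples; each point is 1 sample, colours mark the group and crosses at the bottom mark genes with at least 1 sample at 0. Elf3 stands above the rest in Ad-hHIF2, at 39.3 on average, and Elf5 and Spdef lie near 0.

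Of the 17 other ETS genes, 7 had enough counts to be tested in Ad-hHIF2 against Ad-GFP. Etv3, a repressor related to Erf, rose from 31.4 to 34.7 CPM in Ad-GFP to 59.8 to 66.3 CPM in Ad-hHIF2, a log2 fold change of 0.91 ± 0.07 (SE) with an edgeR adjusted p of 4.55e-05. Etv6, also a repressor, rose from 8.35 to 9.65 CPM to 13.3 to 15.2 CPM, a log2 fold change of 0.66 ± 0.10 (SE) with an edgeR adjusted p of 0.00178. Elf2, another relative of Elf1, passed at 0.20 (edgeR adjusted p 0.0416). Gabpa, Elk1, Elk4 and Spic did not pass, and the median of the 7 was 0.181. Gabpa, at 15.4 CPM per kb in Ad-GFP, and Elf2, at 14.3, were as abundant per length as the leading members. Elf5 and Spdef, ETS genes of secretory epithelium, were at 0.197 and 0.035 CPM in Ad-GFP. The others (Erg, Fli1, Fev, Etv1, Etv2, Etv3l, Spi1 and Spib), among them the endothelial and blood cell members, had mean levels under 0.35 CPM in every group and were not tested. In Ad-hHIF1, 0 of the 7 passed, beside 0.0% of all genes.

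Genes that act on ETS proteins were counted from a list of 17, of which 16 were found and tested. In Ad-hHIF2 against Ad-GFP, 6 were higher, 2 were lower and 8 did not pass, beside 15.9% higher and 13.6% lower among all genes, with a median log2 fold change of 0.124. Atxn1, a partner of the repressor Cic, which silences Etv4 and Etv5 and other ETS genes, rose from 20.9 to 25.1 CPM in Ad-GFP to 46.1 to 49.1 CPM in Ad-hHIF2, a log2 fold change of 1.05 ± 0.08 (SE) with an edgeR adjusted p of 5.05e-05. Cic itself rose by 0.45 and its other partner Atxn1l by 0.30 on the log2 scale (edgeR adjusted p 0.00715 and 0.0216). On the same scale, Trib2 rose by 0.83 (edgeR adjusted p 0.0174), while Trib1 fell by 0.72 and Trib3 fell by 0.47 (edgeR adjusted p 0.02 and 0.00201). Among members of the COP1 ligase complex that degrades PEA3 proteins, Dda1 rose by 0.29 (edgeR adjusted p 0.0327), while Rfwd2, Det1, Ddb1 and Cul4a, at -0.03, 0.01, 0.16 and -0.24, did not pass.

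The ERK feedback list holds genes that ERK signalling induces and whose products mostly restrain it. All 11 were tested, and 3 rose, 1 fell and 7 did not pass, a share called that is near the 29.5% of all genes. The median was 0.183. Spry4, an inhibitor of receptor signalling, rose from 7.68 to 9.35 CPM in Ad-GFP to 15.9 to 16.5 CPM in Ad-hHIF2, a log2 fold change of 0.98 ± 0.11 (SE) with an edgeR adjusted p of 0.000288. Dusp6, an ERK phosphatase, rose from 76.9 to 77.5 CPM to 128 to 139.8 CPM, a log2 fold change of 0.80 ± 0.07 (SE) with an edgeR adjusted p of 8.66e-05. Spry2 rose by 0.62 (edgeR adjusted p 0.00379) and Phlda1 fell by 0.67 (edgeR adjusted p 0.00127) on the log2 scale. In Ad-hHIF1, 0 of the 11 passed and 0 of the 16 genes that act on ETS proteins did, beside 0.0% of all genes.

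From a list of 25 genes known as ETS targets in various tissues, 21 were tested in Ad-hHIF2 against Ad-GFP. Of these, 6 rose, 5 fell and 10 did not pass, beside 15.9% higher and 13.6% lower among all genes. The median was 0.0273. Nos2, the inducible nitric oxide synthase, stood at 5.15 to 6.23 CPM in Ad-GFP, 124 to 127.4 CPM in Ad-hHIF2 and 10.9 to 14.3 CPM in Ad-hHIF1, a log2 fold change of 4.43 ± 0.09 (SE, edgeR adjusted p 8.06e-08) in Ad-hHIF2. The hepatocyte growth factor receptor gene Met rose from 74.8 to 81.0 CPM to 170.9 to 176.6 CPM, and the VEGF receptor gene Flt1 from 23.4 to 26.2 CPM to 52.4 to 60.2 CPM, each by a log2 fold change of 1.16 (edgeR adjusted p 1.22e-05 and 2.27e-05). Other targets went down. Egr1, an immediate early gene, went from 19.2 to 26.2 CPM in Ad-GFP to 2.75 to 5.82 CPM in Ad-hHIF2, a log2 fold change of -2.35 ± 0.25 (SE, edgeR adjusted p 0.00023). Ptgs2, which encodes cyclooxygenase 2, fell by 1.57 and Lcn2, which encodes lipocalin 2, by 1.10 on the log2 scale (edgeR adjusted p 2.37e-06 and 0.000287). In Ad-hHIF1, 0 of 20 tested targets passed, beside 0.0% of all genes.

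**Figure D5:**
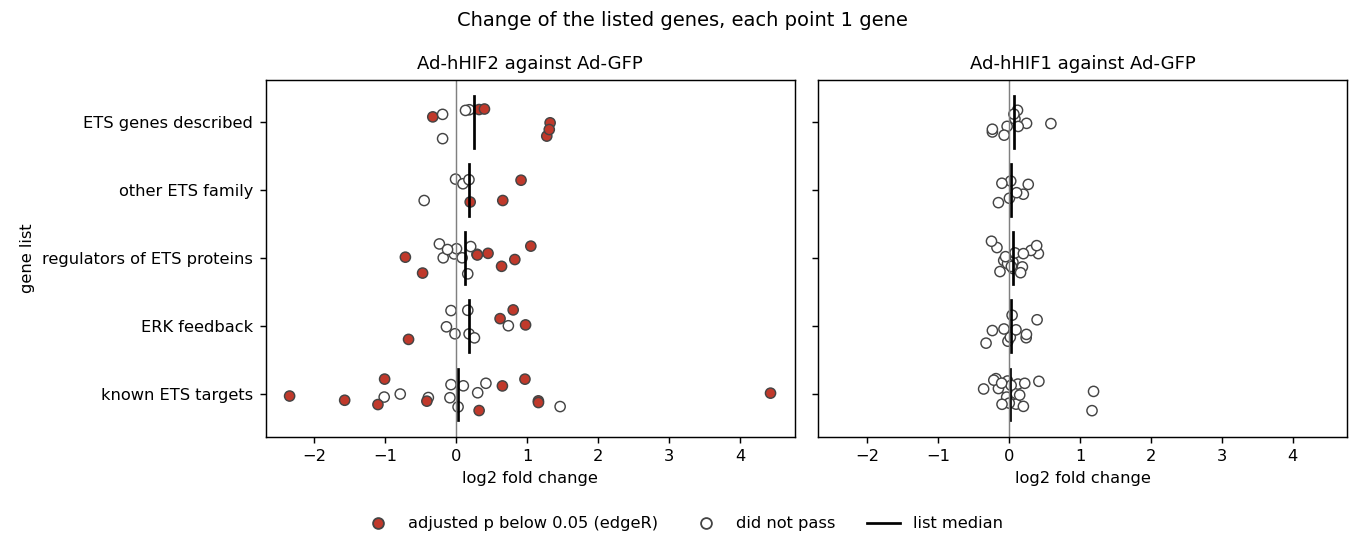
Log2 fold change (horizontal axis, the same scale in both panels) of the genes of each list that were tested against Ad-GFP, each point 1 gene, spread vertically only for legibility; filled points passed an edgeR adjusted p below 0.05 and black bars mark list medians. The ETS genes described have a median of 0.254 with Ad-hHIF2, against 0.0762 with Ad-hHIF1, and the known ETS targets reach from -2.35 to 4.43 in Ad-hHIF2.

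The pattern of Ets1 over the 9 samples was followed most closely, among 7238 genes with a mean of at least 10 CPM, by Ptges (Pearson r of log2 CPM 0.9965), Eps8 (0.996), Impa2 (0.9957), Spns2 (0.9957) and Ugdh (0.9956). Among the members, r with Ets1 was 0.991 for Elf3, 0.904 for Ehf, 0.861 for Elf4 and -0.884 for Etv5. Etv5 was followed most closely by Hnf4a (0.968), D930015E06Rik (0.961), Rpl10a (0.960), Rcor2 (0.960) and Gemin5 (0.957). These values describe 9 points that share their groups and library scaling.

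RefSeq promoters (GRCm38.p6), from 250 bases before to 50 after the start, matched 7 of the 10 members (Ets2, Elf1, Elf3, Elf4, Etv5, Erf and Elk3). They were searched on both strands for the core of the hypoxia response element, ACGTG or GCGTG, and for the ETS core GGAA. The Elf3 promoter is shown because Elf3 had the largest fitted change among these 7, and the Elf4 window because it holds that core as a palindrome. In the Elf3 stretch, 154 bases upstream of annotated exons at chr1:135258569-135258722 on the minus strand, capitals mark GGAA on either strand. In the Elf4 window, chrX:48463329-48463369 on the minus strand, capitals mark 1 match of the hypoxia response element core, which reads ACGTG on the opposite strand. The g that follows the capitals completes the palindrome CACGTG.
Elf3: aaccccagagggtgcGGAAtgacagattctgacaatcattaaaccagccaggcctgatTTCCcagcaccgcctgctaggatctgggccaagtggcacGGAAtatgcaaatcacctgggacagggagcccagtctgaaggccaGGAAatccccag
Elf4: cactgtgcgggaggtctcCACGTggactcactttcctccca
The Elf3 promoter held 4 GGAA matches, all within the stretch shown, and 0 matches of the hypoxia response element core. The first Elf4 promoter held 3 matches of the latter, at -219, -218 and -17, the first pair being overlapping reads of one palindrome, and its second promoter held 1. Ets2 and Erf promoters held 2 each, and Elf1, Etv5 and Elk3 held 1 each in 1 promoter. The Ets2 and Etv5 matches lay within annotated exons, and the Elk3 match lay at +11, after the start. Thus 7 of the 10 promoters of these genes held the core, among genes that passed the test and genes that did not. For Ets1, Ehf and Etv4 no promoter was available to search. Among 32851 promoters of this length, 43.8% held the hypoxia response element core and 96.0% held GGAA, and a match is a description of the sequence only.

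The samples were checked against their labels. Reads assigned to mouse Epas1, the gene for HIF2α, gave 1.64, 1.47 and 2.20 CPM in Ad-GFP, 757.5, 604.3 and 654.4 CPM in Ad-hHIF2 and 1.69, 3.07 and 1.56 CPM in Ad-hHIF1. Hif1a gave 197.6, 210.3 and 251.2 CPM in Ad-GFP, 244.2, 211.0 and 225.6 CPM in Ad-hHIF2 and 308.5, 319.2 and 299.3 CPM in Ad-hHIF1, so that its Ad-hHIF1 samples stood above all others by less than 2-fold. Hif1a did not pass in Ad-hHIF1 against Ad-GFP (edgeR adjusted p 0.486) and passed as lower in Ad-hHIF2 against Ad-hHIF1 (edgeR adjusted p 0.0086). The vectors carry human sequence, of which only the part that matches the mouse gene can be counted. Library totals ran from 21722618 to 51119041 expected counts, the signal recognition particle RNAs took 12.47% to 21.76% of them, and satellite-like genes took 15.96% in Ad-hHIF1 replicate 3 and 0.43% to 4.28% elsewhere.

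The epithelial label held in part. Of 8 epithelial markers, Krt8, Krt18 and Krt19 had group means of 842.8 to 1256 CPM and Cdh1 of 218.5 to 315.7 CPM, while Epcam was at 1.68 to 2.94, Vil1 at 3.99 to 4.72 and Cldn7 at 1.73 to 1.98 CPM. The summed level of the 8 was 3231 to 3543 CPM in Ad-GFP, 3411 to 3741 in Ad-hHIF2 and 3320 to 3734 in Ad-hHIF1. In Ad-hHIF2 against Ad-GFP, Cdh1 was higher by 0.53 and Epcam lower by 0.81 on the log2 scale (edgeR adjusted p 0.00313 and 0.0472), and Cldn3 was lower by 0.44 (0.0462). Stem cell markers summed to 0.36 to 2.15 CPM over all samples, with Lgr5 at 0.201 CPM in Ad-GFP and 0.691 in Ad-hHIF2 and Axin2 at 0.445 and 0.878, neither passing, while Ascl2 was at 0.22 and 0.0229 and Smoc2 at 0.128 and 0.0283, both too low to be tested there. Ascl2 passed as lower in Ad-hHIF2 against Ad-hHIF1 (edgeR adjusted p 0.0316), on at most 24 counts per sample. Olfm4 was at 0 in all Ad-GFP and Ad-hHIF2 samples. Enterocyte markers summed to 38.04 to 58.7 CPM, mostly Krt20. Among them Apoa4, an enterocyte apolipoprotein gene, passed as higher in Ad-hHIF2 (edgeR adjusted p 5.51e-05), with 0 to 0.0277 CPM in Ad-GFP, 2.22 to 2.81 in Ad-hHIF2 and 0 to 0.0511 in Ad-hHIF1. The other 4 enterocyte markers tested did not pass, among them Fabp2, at 0.502 CPM in Ad-GFP and 0.148 in Ad-hHIF2 without overlap (edgeR adjusted p 0.0837). Goblet, Paneth and enteroendocrine markers summed to 1.61 to 7.60 CPM, with Muc2 lower in Ad-hHIF2 by a log2 fold change of 1.77 (edgeR adjusted p 0.000882). Vim, a mesenchymal filament gene, was at 1120 CPM in Ad-GFP, 1754 in Ad-hHIF2 and 1042 in Ad-hHIF1, and was higher in Ad-hHIF2 than in both (edgeR adjusted p 0.000454 and 4.17e-05). Markers of fibroblasts and smooth muscle summed to 9.88 to 20.2 CPM over all samples, of the endothelium to 2.40 to 5.47, of tuft cells to 1.15 to 2.85 and of immune cells to 8.52 to 15.9, most of the last from Cd68, which did not pass against Ad-GFP (log2 fold change 0.38) and was higher in Ad-hHIF2 than in Ad-hHIF1 (0.60, edgeR adjusted p 0.0374). Ptprc, the common leukocyte antigen gene, was at 0.492 to 1.15 CPM in Ad-GFP, 0 to 0.0686 in Ad-hHIF2 and 0.128 to 0.526 in Ad-hHIF1, and passed as lower in Ad-hHIF2 (edgeR adjusted p 0.00472). Dcn, Acta2, Vwf and Dclk1, at 0.641, 0.575, 3.83 and 1.42 CPM in Ad-GFP, did not pass. Whether cell composition had a part in the changes of the ETS genes was not tested.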

How the data were processed

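Bulk RNA from 9 organoid samples was sequenced, 3 per group. Per the labels and methods, low-quality reads were discarded by the authors, who then ran RSEM. The deposited tables give expected counts, TPM, FPKM and effective lengths per gene. The aligner, genome build, annotation and strandedness are not given in the sources used here. Expected counts (85.7% whole) were rounded. Levels are CPM on TMM-scaled library totals, and comparisons between genes use CPM per kb of effective length. TPM and FPKM served only as alternatives.

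Ad-hHIF2 and Ad-hHIF1 were each set against Ad-GFP in a fit of 6 samples, and Ad-hHIF2 with Ad-hHIF1 in all 9, with edgeR 4.0.16 (quasi-likelihood test, filterByExpr, Benjamini-Hochberg adjustment over all genes tested) in R 4.3.3. Genes passed at an adjusted p below 0.05, and at 2-fold also at a log2 fold change of at least 1 in size. An exact permutation test of 3 against 3 cannot go below 0.1 and was not used. Alternatives were DESeq2 1.42.0, limma 3.58.1 (voom, or log2(TPM + 1), log2(TPM + 0.1) and log2(FPKM + 0.1)), other scaling and filters, other sample sets and leaving out each sample. The FPKM alternative was added after the data were seen. The code was tested on simulated counts.

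The members and gene lists were chosen with earlier results of these data known. Named genes were all members, Epas1 and Hif1a, every other ETS gene, and from each list those past the threshold at 2-fold (at most the 6 largest, or the 2 largest where none reached it); further genes of the lists were named after their values were seen. The genes most like Ets1 and Etv5 were the 5 with the highest Pearson r of log2(CPM + 0.5). Positions are from GENCODE M21 (GRCm38), found by gene ID, and need not be the authors' build. Promoter sequences are from RefSeq. A gene of the lists is not reported here by name.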

Additional observations from a re-analysis of the deposited data

How the results depend on the processing

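Ets1 and Elf3 passed in Ad-hHIF2 against both other groups in every alternative run. In Ad-hHIF2 against Ad-GFP, 6 members passed, against 3 with log2(TPM + 1), 3 with log2(TPM + 0.1) and 2 with log2(FPKM + 0.1), and 4 to 7 when each sample was left out. Over all genes the calls went from 4416 to 1010, 1109 and 1922 on these scales, and to 3074 to 4539 when each sample was left out. In Ad-hHIF2 against Ad-hHIF1, 4 passed, against 2 on each of these 3 scales and 2 to 6 when each sample was left out. Calls over all genes went from 4008 to 367, 460 and 1384 on these scales, and to 2594 to 4335 when each sample was left out. Of the members, 2 reached 2-fold, against 1 with at least 10 counts in every sample, 1 with log2(TPM + 1), and 1 to 2 when each sample was left out. The cause was not tested. The log2 fold change of Etv5 reversed on the TPM scales, to 0.0607 and 0.1014 against Ad-GFP and 0.0115 and 0.0002 against Ad-hHIF1. Etv4 and Erf, which did not pass, also changed sign against Ad-GFP. With total counts, log2(TPM + 1) and log2(TPM + 0.1), Etv4 was at 0.0791, 0.1058 and 0.1323 and Erf at 0.0659, 0.1587 and 0.2398. Other scalings moved the median of all genes in Ad-hHIF2 against Ad-GFP, to 0.244 with total counts, 0.124 and 0.302 on the TPM scales and 0.203 on the FPKM scale. Relative to that median, Etv5 was at -0.06 and -0.20 on the TPM scales, and -0.31 with total counts, where it did not pass. Elf1 and Etv5 each lost their call against Ad-GFP in 8 alternatives, Elf4 in 4 and Ehf in 1. Elf4 and Etv5 each lost theirs against Ad-hHIF1 in 10, while Elk3 gained one in 6 and Ehf in 5. In Ad-hHIF1 against Ad-GFP, 0 members passed in any alternative. The count over all genes was 0 in the main edgeR fit. With edgeR it was 384 without a count filter and 7 in a fit of all 9 samples. It was 144 with DESeq2 and 5 with limma-voom.

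Same-numbered samples did not deviate together throughout (correlations of 0.086 to 0.214 between Ad-GFP and Ad-hHIF2, with a mean of 0.131 against -0.065 for different numbers, and a mean of -0.15 between Ad-hHIF2 and Ad-hHIF1), so they were not treated as pairs; whether they share an animal was not tested. With the replicate number as a block, 6 members passed in Ad-hHIF2 against Ad-GFP, 0 in Ad-hHIF1 against Ad-GFP and 3 in Ad-hHIF2 against Ad-hHIF1 (Elf4 and Etv5 lost, Elk3 gained). The block moved the count over all genes from 4416 to 4631 in the first of these and from 4008 to 3638 in the last. Ehf had the fewest counts of the members, with 20 in its shallowest sample.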
